A study of Mus musculus with 8 samples.

Results

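The 6 genes Plagl1, Treml2, Nsg2, Derl3, Lad1 and Maged2 were chosen by their expression values, which differed widely between the Ebi3-Treg and the Blimp1-Treg libraries within each deposited table, while little is known of their role in regulatory T cells (Tregs). All 6 were found by Ensembl identifier among the 47069 genes present in both tables, and all 6 were among the 12273 genes expressed highly enough to be tested. Because the difference between the populations chose them, it is described below without a test. Transcripts were measured by RNA sequencing in cells from lymph nodes of C57BL/6 mice, 6 to 8 weeks old, of the genotype 35EbiT × Blimp1-GFP KI, so that both populations came from animals with the same reporters. Ebi3-Treg cells were sorted as CD25+, CD62L-low, Thy1.1+ and Blimp1- cells, and Blimp1-Treg cells as CD25+, CD62L-low, Thy1.1- and Blimp1+ cells, after CD4+ cells had been enriched with magnetic beads. Each population had 4 libraries, numbered 1 to 4, made by a low-input method (SMART-Seq v4) from 10 pg to 10 ng of RNA, and the labels give the usual purity of the sort as above 90%.

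Tregs restrain immune responses under the control of the transcription factor Foxp3. The Ebi3 protein pairs with other chains to form the cytokines IL-27 and IL-35, and Blimp1 (gene Prdm1) is a repressor of transcription found in effector lymphocytes. The 6 genes are known mostly from other settings. Plagl1 encodes a zinc finger transcription factor and is an imprinted gene, expressed from the paternal allele in many tissues. Treml2 encodes a surface receptor of the TREM (triggering receptor expressed on myeloid cells) family. Nsg2 encodes a protein of endosomes and vesicles in neurons, Derl3 a derlin of the endoplasmic reticulum (ER), Lad1 the anchoring filament protein ladinin of epithelial basement membranes, and Maged2 an X-linked member of the MAGE (melanoma antigen) family.

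The values are FPKM (fragments per kilobase of gene length, scaled to the depth of the library). One table holds numbers 1 and 2 of both populations and the other holds numbers 3 and 4. Depth was 13.3 to 25.6 M reads in Ebi3-Treg libraries and 14.7 to 31.3 M reads in Blimp1-Treg libraries (M, mega), at which a single read over 1 kb of gene equals 0.0320 to 0.0750 FPKM. The sorted identity showed in the transcripts, with Ebi3 at 20.1 to 46.6 FPKM in Ebi3-Treg against 4.94 to 11.7 FPKM in Blimp1-Treg, Prdm1 at 1.94 to 4.33 against 52.2 to 120.7 FPKM, and Foxp3 at 182 to 375 against 184 to 406 FPKM. Both libraries numbered 1 stood apart by B cell transcripts, where the levels of 7 B cell markers summed to 208 FPKM (Ebi3-Treg 1) and 150.0 FPKM (Blimp1-Treg 1), against 21.4 to 37.9 FPKM in the other 6 libraries. None of the 7 markers was at 0 in all libraries, and of the 4 that could be tested 0 passed the test between populations. The 7 macrophage and dendritic cell markers summed to 149, 114, 13 and 23.6 FPKM in Ebi3-Treg 1 to 4, against 35.5, 8.97, 4.65 and 10.5 FPKM in Blimp1-Treg 1 to 4, with 2 tested, 0 passing and none at 0 in all libraries. The tables also differed in the sex of the mice, since Xist, transcribed in females, was at 18.5 to 24.4 FPKM in replicates 3 and 4 and at most at 0.0750 FPKM in replicates 1 and 2. Effects of sex and of table cannot be told apart. The labels do not say that replicates came from separate animals, so errors and p-values measure the spread between these libraries, which may be technical.

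In all 6 genes every Ebi3-Treg library lay above every Blimp1-Treg library. The same held for 814 of the 12273 tested genes (6.63%), and nothing is read from the count of 6 because the choice of the genes used this contrast. The median log2 fold change of the 6, Ebi3-Treg over Blimp1-Treg on the log2(FPKM + 1) scale, was 2.98, beside a median of 0.07 over all tested genes. On this scale folds of low genes are understated. Without both libraries numbered 1 the log2 fold changes of Plagl1, Lad1 and Maged2 were 3.23, 3.88 and 2.57, and those of the others are given beside their values. In RNA from sorted cells, a lower level can come from fewer cells with the transcript or from less RNA per cell, which cannot be told apart here.

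**Figure D1:**
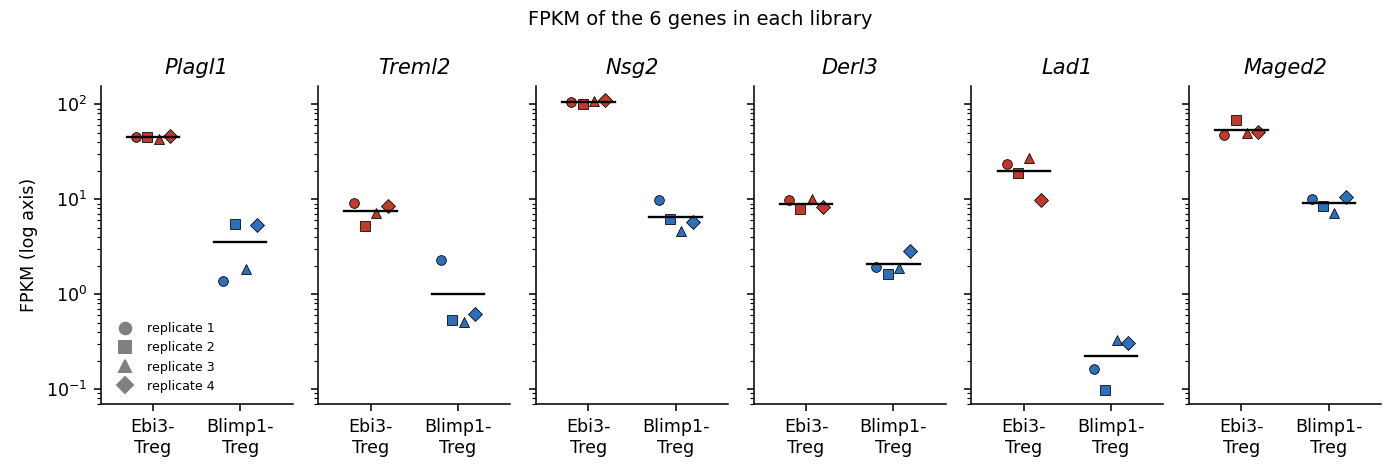
FPKM of the 6 genes in each library on a log axis, with Ebi3-Treg libraries in red left of Blimp1-Treg libraries in blue; symbols give the replicate number and lines the mean of 4 libraries. In each gene the lowest Ebi3-Treg library lies above the highest Blimp1-Treg library, and Lad1 has the lowest Blimp1-Treg values, all under 1 FPKM.

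Plagl1 (ENSMUSG00000019817, chromosome 10) encodes a factor that, when overexpressed, halts the cell cycle and promotes cell death. It was at 45.7, 45.5, 43.4 and 46.2 FPKM in Ebi3-Treg 1 to 4, against 1.37, 5.55, 1.86 and 5.35 FPKM in Blimp1-Treg 1 to 4. The Ebi3-Treg libraries were nearly level, whereas the Blimp1-Treg libraries fell into a lower pair (1 and 3) and a higher pair (2 and 4). The means were 45.2 ± 1.23 FPKM over Ebi3-Treg libraries and 3.53 ± 2.22 FPKM over Blimp1-Treg libraries (SD, n = 4 each), a ratio of 12.8 and a log2 fold change of 3.50 (SE 0.36). The coefficient of variation (CV, SD over mean) in Ebi3-Treg was 2.73%, at percentile 0.4 among the 9011 genes with a mean of at least 5 FPKM there. It was 63.0% in Blimp1-Treg.

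Plagl2, another factor of the PLAG (pleiomorphic adenoma gene) family, was at 17.7, 6.29, 12.04 and 13.3 FPKM in Ebi3-Treg 1 to 4, against 10.9, 4.93, 10.2 and 11.6 FPKM in Blimp1-Treg 1 to 4. The populations overlapped, and the log2 fold change of 0.34 (SE 0.33) did not pass the test (limma, Benjamini-Hochberg adjusted p = 0.717). Plag1, the family's founding member, was under 1 FPKM in all libraries and was not tested. Of 29 other imprinted genes 7 were expressed highly enough to be tested, and 0 were higher and 0 lower, though 1 had an unadjusted p under 0.05 and 1 was called higher when the replicate number entered as a block. In these lists calls are read against 3.37% of all tested genes called higher and 2.93% called lower. Calls with the block are read against 13.5% higher and 8.94% lower. No such share is given here for an unadjusted p under 0.05, so nothing is read from those counts. The median log2 fold change of the 7 was 0.32. Igf2r, which encodes the receptor that clears insulin-like growth factor 2 and is maternally expressed, averaged 70.1 ± 24.0 FPKM over Ebi3-Treg and 30.9 ± 13.4 FPKM over Blimp1-Treg libraries (SD, n = 4 each), with a log2 fold change of 1.21 (limma, adjusted p = 0.0757). With the block its adjusted p was 0.000554. The cell cycle inhibitor gene Cdkn1c had a log2 value of 0.49 (adjusted p = 0.308), and Gnas, which encodes a G protein subunit, 0.32 (adjusted p = 0.414).

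Treml2 (ENSMUSG00000071068, chromosome 17) encodes a receptor reported in mice on B cells, macrophages and activated T cells, and B7-H3 (gene Cd276) has been proposed as its ligand. It was at 9.15, 5.25, 7.22 and 8.58 FPKM in Ebi3-Treg 1 to 4, against 2.31, 0.534, 0.508 and 0.619 FPKM in Blimp1-Treg 1 to 4. In both populations the library numbered 1, with its B cell transcripts, had the highest value, and Blimp1-Treg 1 was well above the other 3 of its population. The means were 7.55 ± 1.73 FPKM over Ebi3-Treg libraries and 0.993 ± 0.880 FPKM over Blimp1-Treg libraries (SD, n = 4 each), a ratio of 7.60. The log2 fold change was 2.16 (SE 0.30), and it was 2.35 (SE 0.19) without both libraries numbered 1 and 3.05 with a pseudocount of 0.1. The part of B cells in the level of Treml2 in these 2 libraries was not tested. Among the macrophage and dendritic cell markers, Fcer1g was at 21.2 to 39.6 FPKM in Ebi3-Treg 1 and 2 and at most at 1.56 FPKM elsewhere. Every marker of the list was highest in Ebi3-Treg 1, where Itgax, Siglech and Flt3 were at 1.55, 3.23 and 0.883 FPKM. Within Ebi3-Treg, Lyz2, Csf1r and Adgre1 were next highest in Ebi3-Treg 2. Itgax, Siglech and Flt3 were at 0.161, 0.770 and 0.0912 FPKM in Ebi3-Treg 2, under their 1.22, 1.68 and 0.217 FPKM in Ebi3-Treg 3. Treml2 was at 9.15 and 5.25 FPKM in Ebi3-Treg 1 and 2, the highest and the lowest of its population. The part of myeloid cells in the level of Treml2 was not tested.

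Other receptors of the TREM cluster were low in both populations. Treml1, Trem1, Trem2 and Trem3 were under 1 FPKM in all libraries, and Treml4 reached 2.02 FPKM. Cd276 was at most at 0.217 FPKM. Of the 3 tested genes of this list 0 passed the test, though 2 had an unadjusted p under 0.05 and the block gave 1 higher. Tyrobp, which encodes the signalling adaptor DAP12 used by several TREM receptors, was at 10.7, 3.95, 1.995 and 0.241 FPKM in Ebi3-Treg 1 to 4, against 1.30, 0.273, 0.277 and 0 FPKM in Blimp1-Treg 1 to 4. It overlapped between the populations and was highest in Ebi3-Treg 1 and 2, the libraries with the most Fcer1g, at 1.46 on the log2 scale (SE 0.46, limma, adjusted p = 0.122, and 0.0228 with the block). Hcst, which encodes the adaptor DAP10, was at -0.31 on the log2 scale (adjusted p = 0.786), and the related receptor gene Cd300lf was at 0.63 (adjusted p = 0.160).

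Genes of resting or central T cells were listed beside Treml2 with their pattern between these populations already known, so their values are a description and support nothing. Of the 17 expressed highly enough to be tested 7 were past the threshold as higher and 0 as lower, with a median log2 fold change of 0.94, and 13 were past it as higher with the block. Id3, an inhibitor of E protein transcription factors, had a value of 2.65, and Bcl2, which encodes a survival factor, one of 1.58.

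Nsg2 (ENSMUSG00000020297, chromosome 11) encodes a small membrane protein that sorts receptors, AMPA receptors among them, through the endosomes of neurons. It was at 105, 100.1, 108 and 110.0 FPKM in Ebi3-Treg 1 to 4, against 9.70, 6.21, 4.63 and 5.76 FPKM in Blimp1-Treg 1 to 4. Of the 6 genes it had the highest FPKM in every Ebi3-Treg library. The means were 105.6 ± 4.31 FPKM over Ebi3-Treg libraries and 6.58 ± 2.19 FPKM over Blimp1-Treg libraries (SD, n = 4 each), a ratio of 16.1 and a log2 fold change of 3.86 (SE 0.19). Only 2 of the 12273 tested genes had a larger one, and Lad1 was among those 2. Its CV in Ebi3-Treg was 4.08%, at percentile 1.3 of the 9011 genes. Blimp1-Treg 1, with its B cell transcripts, had the highest Blimp1-Treg value, and the log2 fold change was 4.04 (SE 0.12) without both libraries numbered 1.

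Markers of neurons, the cells best known for Nsg2, were low in both populations. The 5 neuron markers summed to 0.718 to 2.81 FPKM in Ebi3-Treg libraries and to 0.834 to 6.11 FPKM in Blimp1-Treg libraries, and none reached the level needed for a test, though none was at 0 in all libraries. The paralog Nsg1 was at 0.624, 1.003, 0.320 and 0.530 FPKM in Ebi3-Treg 1 to 4, against 0.511, 1.15, 0.554 and 0.435 FPKM in Blimp1-Treg 1 to 4, and the populations overlapped. Caly, the other paralog, was at most at 0.395 FPKM. Both were too low to be tested.

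The promoter of Nsg2 is shown because 2 copies of one motif lie close together in it. RefSeq (GRCm38.p6) lists 2 windows for the gene, and the one with matches, chr11:32000169-32000418 on the + strand, covers the 250 bases before the start of transcription.
Nsg2 promoter: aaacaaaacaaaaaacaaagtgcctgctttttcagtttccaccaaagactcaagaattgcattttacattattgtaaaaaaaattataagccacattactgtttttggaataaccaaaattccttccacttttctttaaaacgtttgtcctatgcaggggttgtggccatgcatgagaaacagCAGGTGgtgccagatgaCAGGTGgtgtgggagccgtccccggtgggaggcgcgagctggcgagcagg
The capitals mark CAGGTG, the E-box bound by E proteins, at 67 to 62 and at 50 to 45 bases before the start, both on the strand of the gene. Searched on both strands, CAGGTG was present in 17.2% of 32851 windows of this length, so a window with a match is common. Windows with 2 matches were not counted, so whether such a pair is unusual is not known.

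Of 26 tested genes of endosomes and vesicles, the compartments of Nsg2, 0 were higher, 3 were lower and 23 did not pass. Their median log2 fold change was -0.12. The block gave 1 higher and 7 lower, where it called 13.5% of all tested genes higher and 8.94% lower. Ehd1, which drives recycling from endosomes, was at 59.9, 65.4, 46.4 and 46.5 FPKM in Ebi3-Treg 1 to 4, against 210, 123, 160 and 148 FPKM in Blimp1-Treg 1 to 4. The populations did not overlap, and Ehd1 fell in Ebi3-Treg by 1.53 on the log2 scale (SE 0.18, limma, adjusted p = 0.00363). Eea1, a tether of early endosomes, was at -0.76 (adjusted p = 0.0275, up to 0.115 with a library left out, and lost without any library but Blimp1-Treg 1). Hip1, a clathrin adaptor, had -1.80 (adjusted p = 0.0485, up to 0.158, and lost without any library but Ebi3-Treg 1 or Blimp1-Treg 2).

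Derl3 (ENSMUSG00000009092, chromosome 10) encodes one of the 3 mammalian derlins, which help to draw misfolded proteins out of the ER for degradation. It was at 9.77, 7.90, 9.995 and 8.37 FPKM in Ebi3-Treg 1 to 4, against 1.91, 1.61, 1.87 and 2.85 FPKM in Blimp1-Treg 1 to 4. The Ebi3-Treg libraries lay within a narrow range, and Blimp1-Treg 4 was the highest of its population. The means were 9.01 ± 1.03 FPKM over Ebi3-Treg libraries and 2.06 ± 0.543 FPKM over Blimp1-Treg libraries (SD, n = 4 each), a ratio of 4.37. The log2 fold change was 1.72 (SE 0.18), the smallest of the 6 genes, and 1.66 (SE 0.18) without both libraries numbered 1.

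The other derlins had lower means in Ebi3-Treg. Derl1 was at 66.8, 74.1, 67.5 and 74.2 FPKM in Ebi3-Treg 1 to 4, against 84.9, 86.1, 90.3 and 84.7 FPKM in Blimp1-Treg 1 to 4. The groups did not overlap, but the log2 fold change of -0.29 (SE 0.11) missed the threshold (limma, adjusted p = 0.206), which it passed with the block (adjusted p = 0.0368). Derl2 was at 41.5, 54.2, 37.4 and 37.4 FPKM in Ebi3-Treg 1 to 4, against 46.8, 65.9, 44.5 and 40.9 FPKM in Blimp1-Treg 1 to 4. It overlapped, with -0.20 on the log2 scale (SE 0.16, adjusted p = 0.603).

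Of 25 tested genes of ER-associated degradation 0 were higher and 0 lower, though 2 had an unadjusted p under 0.05. Their median log2 fold change was 0.0034, and the block gave 2 higher and 0 lower. The 2 with the smallest p were Rnf5, a ubiquitin ligase of the ER membrane (0.53, adjusted p = 0.110, and 0.0394 with the block), and Ube2j1, a ubiquitin-conjugating enzyme of the ER (0.33, adjusted p = 0.236, and 0.0186 with the block). Of 23 tested genes of the unfolded protein response, the programme that induces derlins under ER stress, 0 were higher and 0 lower. Of these 3 had an unadjusted p under 0.05, the median was -0.16, and the block gave 1 higher and 6 lower. Its chaperones Hsp90b1 (-0.67, adjusted p = 0.107, and 0.00325 with the block) and Pdia4 (-0.51, adjusted p = 0.0824, and 0.00349 with the block) and the inhibitor of the kinase PERK encoded by Dnajc3 (0.45, adjusted p = 0.0659, and 0.00873 with the block) had the smallest p. The 6 plasma cell markers summed to 1169 to 1923 FPKM in Ebi3-Treg and to 1734 to 2260 FPKM in Blimp1-Treg, of which 4 were tested, 0 passed and none was at 0 in all libraries. Nearly all of the sum was Ighm, at 1154 to 1902 FPKM in Ebi3-Treg and 1715 to 2214 FPKM in Blimp1-Treg libraries, and the list also holds Irf4, which Tregs express too. Jchain, which encodes the joining chain of secreted antibodies, was at 14.5, 0.292, 0.844 and 0.824 FPKM in Ebi3-Treg 1 to 4, against 12.5, 0.247, 6.02 and 11.8 FPKM in Blimp1-Treg 1 to 4. It was high in both libraries numbered 1 and in Blimp1-Treg 3 and 4. Among the Blimp1-Treg libraries, Derl3 was highest in Blimp1-Treg 4, as were Sdc1 and Ighm of this list. The list's other markers, Jchain, Mzb1, Tnfrsf17 and Irf4, were highest in Blimp1-Treg 1, and Tnfrsf17 was under 1 FPKM in all libraries. The part of plasma cells in the level of Derl3 was not tested.

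The promoter of Derl3 is shown because it holds the ER stress response element (ERSE), a motif of promoters switched on by the unfolded protein response. The RefSeq window, chr10:75893148-75893397 of GRCm38.p6 on the + strand, covers the 250 bases before the start.
Derl3 promoter: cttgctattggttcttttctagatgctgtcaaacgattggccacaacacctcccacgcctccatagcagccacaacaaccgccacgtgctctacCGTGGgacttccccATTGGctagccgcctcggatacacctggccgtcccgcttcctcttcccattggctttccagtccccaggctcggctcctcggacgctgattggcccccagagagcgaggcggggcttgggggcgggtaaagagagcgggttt
The capitals mark both ends of the ERSE, CCAAT and CCACG with 9 bases between them, which lies on the opposite strand at 156 to 138 bases before the start and so reads here in reverse complement. Searched on both strands, the motif was present in 37 of 32851 windows (0.113%). Derl3 was the only 1 of the 5 genes with RefSeq windows (9 windows, with Treml2 not among them) that held it. The same window held CACGTG, a palindromic E-box, at 168 to 163 bases before the start, found in 6.02% of all windows and also in that of Plagl1 at 182 to 177 bases. It held CAGGTG on the opposite strand at 121 to 116 bases. CTTTGAT, bound by TCF and LEF factors, and GAAAGTG, bound by Blimp1, were not in the 9 windows, against 3.21% and 4.01% of all windows. A match is a description of the letters and not a measured binding site.

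Lad1 (ENSMUSG00000041782, chromosome 1) encodes ladinin 1, a protein of the anchoring filaments that hold epithelia to their basement membrane, found also with actin inside epithelial cells. It was at 23.6, 18.7, 27.3 and 9.87 FPKM in Ebi3-Treg 1 to 4, against 0.164, 0.0983, 0.333 and 0.305 FPKM in Blimp1-Treg 1 to 4. Ebi3-Treg 4 was the lowest of its population, and the Blimp1-Treg libraries were all under 1 FPKM. In reads, Lad1 had 946, 591, 569 and 341 in Ebi3-Treg 1 to 4, against 8, 3, 10 and 7 in Blimp1-Treg 1 to 4. The means were 19.9 ± 7.54 FPKM over Ebi3-Treg libraries and 0.225 ± 0.112 FPKM over Blimp1-Treg libraries (SD, n = 4 each). The 28 reads of Blimp1-Treg have an exact Poisson 95% interval of 18.6 to 40.5, which covers counting error only. The ratio of means was 88.4, the highest of the 6, while the log2 fold change was 4.01 (SE 0.31) with a pseudocount of 1, 5.92 with 0.1 and 6.45 with 0.01. Lad1 passed the filter on low values through its Ebi3-Treg libraries alone, so that its presence among the tested genes required a difference. Its CV in Ebi3-Treg, 37.9%, was the highest of the 6 and at percentile 74.3 of the 9011 genes.

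The 6 epithelial markers summed to 16.1 to 25.02 FPKM in Ebi3-Treg libraries and to 37.9 to 62.4 FPKM in Blimp1-Treg libraries. Of them 3 were under 1 FPKM in all libraries, 2 could be tested and both were lower in Ebi3-Treg. The sum was mostly Epcam, at 13 to 22.4 FPKM in Ebi3-Treg and 34.5 to 58.2 FPKM in Blimp1-Treg libraries. Cdh1, which encodes E-cadherin, lay the other way, at 1.17, 0.212, 2.38 and 1.90 FPKM in Ebi3-Treg 1 to 4, against 0.182, 0.0548, 0.0742 and 0.291 FPKM in Blimp1-Treg 1 to 4, and overlapped. The part of epithelial cells in the level of Lad1 was not tested. Of 17 genes of hemidesmosomes and basement membranes 7 could be tested, of which 0 were higher, 1 was lower and 6 did not pass, with a median log2 fold change of -0.26 and 2 lower with the block. Lamc1, a laminin chain, was at 26.7, 10.2, 25.6 and 37.2 FPKM in Ebi3-Treg 1 to 4, against 93.8, 31.5, 113 and 146 FPKM in Blimp1-Treg 1 to 4. Ebi3-Treg 4 was above Blimp1-Treg 2, though at every replicate number the Ebi3-Treg library was the lower one, and Lamc1 fell by 1.84 on the log2 scale (SE 0.40, limma, adjusted p = 0.0339). That call was lost without any library but Ebi3-Treg 1 or Blimp1-Treg 2 (adjusted p up to 0.124).

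Maged2 (ENSMUSG00000025268, X chromosome) encodes a MAGE protein that, in humans, is needed before birth for salt transport in the kidney. It was at 47.7, 68.4, 49.7 and 51.1 FPKM in Ebi3-Treg 1 to 4, against 9.96, 8.38, 7.10 and 10.6 FPKM in Blimp1-Treg 1 to 4. Ebi3-Treg 2 stood above the other 3, which were close together. The means were 54.2 ± 9.57 FPKM over Ebi3-Treg libraries and 9.02 ± 1.58 FPKM over Blimp1-Treg libraries (SD, n = 4 each), a ratio of 6.01. The log2 fold change was 2.46 (SE 0.18), with 2.52 in replicates 1 and 2, from male mice by their Xist and Ddx3y levels, and 2.40 in replicates 3 and 4.

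Maged1, the closest relative of Maged2 and also X-linked, was also higher in Ebi3-Treg. It was at 17.8, 20.6, 37.9 and 35.0 FPKM in Ebi3-Treg 1 to 4, against 8.38, 8.04, 14.5 and 9.83 FPKM in Blimp1-Treg 1 to 4. The groups did not overlap, and Maged1 rose by 1.33 on the log2 scale in Ebi3-Treg (SE 0.17, limma, adjusted p = 0.00485, at most 0.0279 with a library left out). Of the 4 tested genes of the MAGE family 1 was higher, 0 lower and 3 did not pass, and the block gave 2 higher. Mageh1 was at 1.30, 1.79, 4.68 and 4.82 FPKM in Ebi3-Treg 1 to 4, against 0.499, 0.836, 2.77 and 2.22 FPKM in Blimp1-Treg 1 to 4, which overlapped, with 0.67 on the log2 scale (SE 0.17, adjusted p = 0.0642, and 0.0227 with the block). Nsmce3, a subunit of the SMC5/6 complex, had -0.05 (adjusted p = 0.949), and Magee1 had 0.03 (adjusted p = 0.976).

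**Figure D2:**
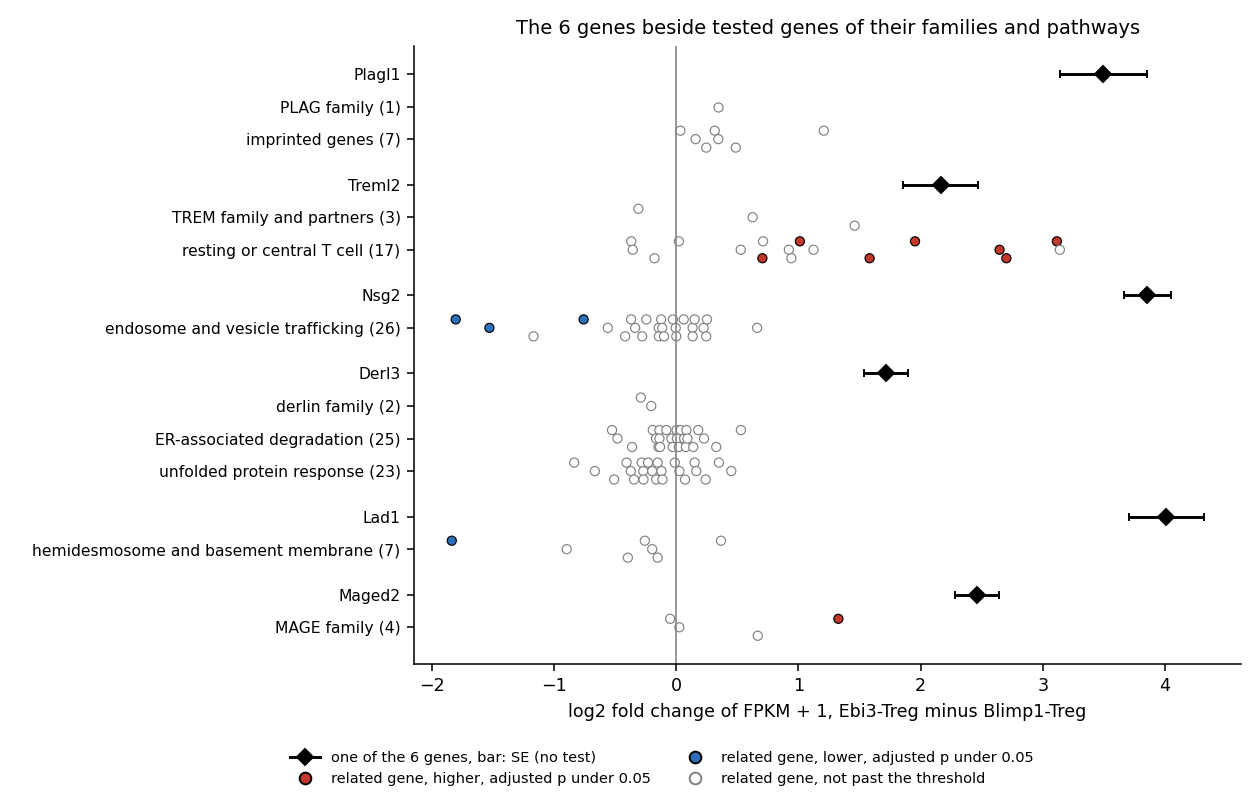
Log2 fold change of FPKM + 1, Ebi3-Treg minus Blimp1-Treg, of the 6 genes (diamonds, bar: SE, no test) and of the tested genes of their families and pathways (circles, number tested in brackets; filled where limma's adjusted p was under 0.05; vertical offsets within a line only separate points). The 6 diamonds, chosen by this difference, lie between 1.72 and 4.01. Most circles lie near 0, and filled circles to the right are in the resting or central T cell list and, for Maged1, the MAGE family.

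Counted once each, 115 of the related genes were tested, and 8 passed as higher (7 of them from the resting or central T cell list) and 4 as lower, while 103 did not pass. Their median log2 fold change was -0.0037. The block gave 21 higher and 16 lower, beside 13.5% and 8.94% of all tested genes. Of the 21, 13 were from the resting or central T cell list. The pattern of that list was known beforehand, so nothing is read from the 21 beside that share.

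The rule that chose the 6 genes did not use the difference between replicates 3 and 4 and replicates 1 and 2, which come from different tables and from mice of different sex, so this difference was tested. It assumes that the authors scaled both tables alike, which the sources used here do not state. Of all tested genes 1032 (8.41%) passed limma's test, 2.55% of the tested genes as higher and 5.86% as lower in replicates 3 and 4. Of the 6 genes 0 passed, and neither the unadjusted p (0 under 0.05) nor the replicate number as a random block (0 passed) called any. Their log2 fold changes, replicates 3 and 4 over replicates 1 and 2, ran from -0.21 for Nsg2 (SE 0.19, adjusted p = 0.444) to 0.16 for Derl3 (SE 0.18, adjusted p = 0.529). The adjusted p of the 6 ran up to 0.937. X-linked Maged2 averaged 50.4 FPKM in Ebi3-Treg 3 and 4 and 58.1 FPKM in Ebi3-Treg 1 and 2, which over both populations gave -0.12 on the log2 scale (SE 0.18, adjusted p = 0.639).

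The paralogs Maged1 and Mageh1 passed the same test, though whether they differ in this from Maged2 was not tested. Maged1 averaged 36.4 FPKM in Ebi3-Treg 3 and 4 and 19.2 FPKM in Ebi3-Treg 1 and 2, and 12.2 FPKM in Blimp1-Treg 3 and 4 and 8.21 FPKM in Blimp1-Treg 1 and 2, which gave 0.70 on the log2 scale (SE 0.17, limma, adjusted p = 0.0486). Mageh1 averaged 4.75 and 1.55 FPKM in the same pairs of Ebi3-Treg libraries and 2.49 and 0.668 FPKM in those of Blimp1-Treg, which gave 1.13 (SE 0.17, adjusted p = 0.0172). The call of Maged1 was lost without any library but Ebi3-Treg 1 (adjusted p up to 0.170), and that of Mageh1 without Ebi3-Treg 4, Blimp1-Treg 3 or Blimp1-Treg 4 (up to 0.0876). With the random block neither passed (adjusted p = 0.282 for Maged1 and 0.158 for Mageh1), nor did most genes, since the count over all genes was then 26.

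Over the 8 libraries, which form 2 populations, the Pearson r of their levels was 0.86 to 0.99 in the 15 pairs, with a median of 0.96. After each population mean was taken away, r ran from -0.56 for Plagl1 with Treml2 to 0.85 for Nsg2 with Treml2, with a median of -0.03 and 8 of 15 pairs below 0. Nsg2 and Treml2 shared their highest deviation in Blimp1-Treg 1, at 0.82 for Treml2 and 0.54 for Nsg2 on the log2(FPKM + 1) scale. In the same library Plagl1 was at its lowest deviation, -0.79.

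**Figure D3:**
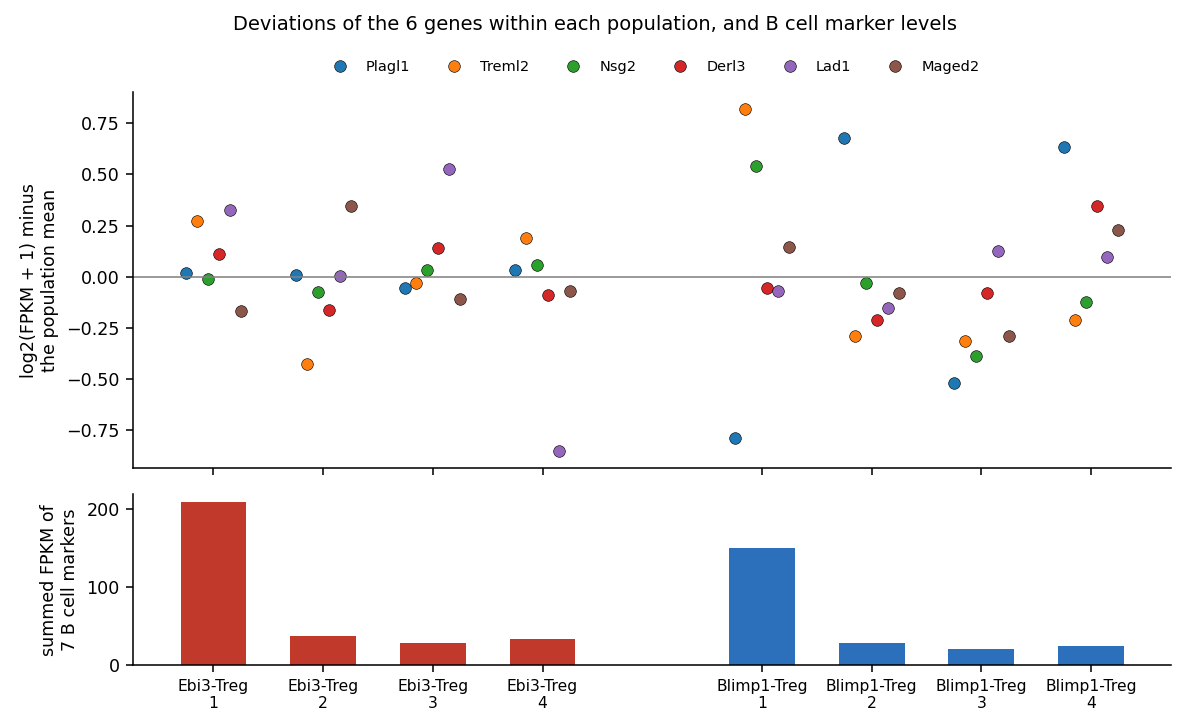
Upper panel, deviation of log2(FPKM + 1) from the mean of its population for the 6 genes in each library; lower panel, summed FPKM of 7 B cell markers in the same libraries. The widest deviations are those of Treml2 (0.82) and Plagl1 (-0.79) in Blimp1-Treg 1 and of Lad1 (-0.86) in Ebi3-Treg 4, and the B cell bars are highest in both libraries numbered 1.

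The genes most like each of the 6 were sought among 8740 named genes by Pearson r of log2(FPKM + 1) over the 8 libraries, as a description. Such an r includes the difference between populations, by which the 6 genes were chosen. Closest to Nsg2 was Gabrr2, a subunit of a GABA receptor, with r = 0.995 and a level of 17.6 ± 2.83 FPKM over Ebi3-Treg and 1.35 ± 0.379 FPKM over Blimp1-Treg libraries (SD, n = 4 each). Wnt10a, which encodes a secreted Wnt ligand, was the closest to Lad1 (r = 0.988) and the next closest to Nsg2 (r = 0.990). The nuclear factor gene Nfix was the closest to Maged2 (r = 0.993) and the next closest to Derl3 (r = 0.991), after Asap1 (r = 0.993), which encodes a regulator of the GTPase ARF. Marcksl1, an actin-binding protein, was the closest to Treml2 with r = 0.980. Plagl1 was closest to Dnajc3 (r = 0.992), whose levels were 49.3, 47.5, 45.8 and 49.1 FPKM in Ebi3-Treg 1 to 4, against 32.5, 37.1, 33.3 and 36.3 FPKM in Blimp1-Treg 1 to 4. Dnajc3 was also the closest to Plagl1 in deviations from the population means (r = 0.892), with the same lower pair (1 and 3) and higher pair (2 and 4) in Blimp1-Treg. For the others the closest by deviations were B4galt4 for Nsg2 (r = 0.957), Tuft1 for Lad1 (0.932), Atpaf2 for Maged2 (0.959), Gtf2e1 for Derl3 (0.959) and Ppm1l for Treml2 (0.977).

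The order of the 6 genes by level depended on the gene length used. Whole reads were recovered for each gene with the shortest length that gave them in all 8 libraries, which was 980 bases for Plagl1, 4509 for Treml2, 1618 for Nsg2, 1336 for Derl3, 1564 for Lad1 and 1480 for Maged2. For Plagl1, Nsg2, Lad1 and Maged2 this equals the mean length of the gene's transcripts in GENCODE M21, rounded to whole bases, a set that includes short fragments. All exonic bases together come to 7819 for Plagl1 and 4157 for Nsg2. With the deposited lengths the order of mean FPKM in Ebi3-Treg was Nsg2, Maged2, Plagl1, Lad1, Derl3 and Treml2. With all exonic bases Plagl1 moved to the end at 5.67 FPKM, after Nsg2 (41.1), Maged2 (24.8), Lad1 (9.14), Treml2 (6.92) and Derl3 (6.04). The ratios between populations do not depend on the length. On log2(FPKM + 1) the lower values would give smaller folds.

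**Figure D4:**
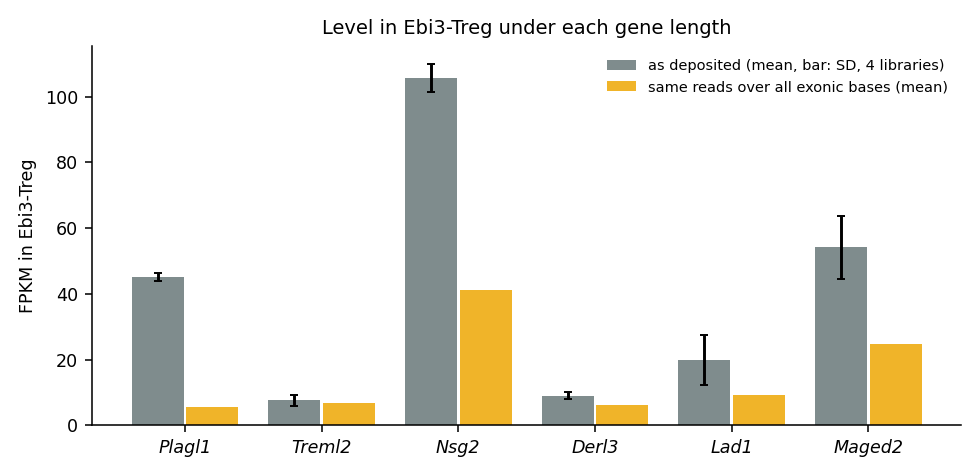
Mean FPKM of the 6 genes in the 4 Ebi3-Treg libraries as deposited (grey, bar: SD) and with the same reads divided by all exonic bases of GENCODE M21 (yellow). Plagl1 stands at 45.2 FPKM as deposited and at 5.67 FPKM over its exonic bases, while Treml2 stands at 7.55 and 6.92 FPKM.

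In summed reads, which give the counting precision, the 4 Ebi3-Treg libraries held 13858 reads of Nsg2 and 972 of Derl3, the most and the fewest of the 6, and the 4 Blimp1-Treg libraries held 1136 of Maged2 and 28 of Lad1, again the most and the fewest.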

How the data were processed

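RNA sequencing of 4 Ebi3-Treg and 4 Blimp1-Treg libraries was analysed from FPKM values deposited by the authors in 2 tables, whose columns carried the names in the sample titles. The submitters' processing notes name the build mm9 and the tools TopHat2 2.0.12, Bowtie2 2.2.3 and HTSeq 0.6.1. The sources used here do not give the annotation, the counting mode or the use of strand, so reads shared between overlapping genes or close relatives may be split in unknown ways. Symbols were matched for 46488 of 47069 Ensembl genes (GENCODE M21, GRCm38, used for names, chromosomes and lengths). Depth and member reads were recovered from the steps of the FPKM values; with reference exon lengths 35.0% to 45.6% of values above 0 were whole (tolerance 0.01), too few for a count test.

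The test covered genes that reached 1 FPKM in 4 or more of the 8 libraries. The log2(FPKM + 1) values, computed here from the deposited FPKM, were fitted in R 4.3.3 by limma 3.58.1 on population and table, with a variance trend, two-sided p and Benjamini-Hochberg adjustment over all 12273 genes at 0.05. The scripts were tested on simulated data. Named genes were the 6, every listed paralog and the 4 tested genes of each list with the smallest p (results on some of them are not reported here), the closest genes by r, and the sort and reporter genes. Cd276 and single cell type markers were named outside this rule, after their values were seen. The 6 genes and the lists were chosen with earlier results of these data known, and the motifs after the sequences were seen. Same-numbered libraries deviated together from their population means (r = 0.62, 0.89, 0.53 and 0.54 for numbers 1 to 4). These deviations include the difference between the tables, and libraries of different numbers were not compared. Whether the libraries are paired by number is therefore not known, and the labels do not state a pairing. Values with the number as a block assume such a pairing and are given where they change a call. Other settings tried were filters, pseudocounts, rescaling, no trend, no table term, each table alone, each library left out and, added after seeing the data, both libraries numbered 1 left out. Promoter windows came from RefSeq (GRCm38.p6).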

Additional observations from a re-analysis of the deposited data

Results flagged for a closer look

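In 12 genes (the 6, Nsg1, Plagl2, Derl1, Derl2, Maged1 and Mageh1) each population's 4 libraries were examined for a library far from the others. Of 24 groups in all 3 showed one, where chance gives about 1 in 20 for independent groups. These groups share libraries, and same-numbered libraries deviated together, so they are not independent and no excess over chance is read from the count. Maged2 was at 68.4 FPKM in Ebi3-Treg 2, against at most 51.1 FPKM in the other 3 Ebi3-Treg libraries. Treml2 was at 2.31 FPKM in Blimp1-Treg 1, against at most 0.619 FPKM in the other 3, in the library that also had the most B cell transcripts of its population, whose part was not tested. The low Nsg1 was at 1.15 FPKM in Blimp1-Treg 2, against at most 0.554 FPKM in the other 3. Over all tested genes, the deviations of both libraries numbered 2 were more alike (r = 0.89) than those of any other number. The part of this in the values of Maged2 and Nsg1 was not tested.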

How the results depend on the processing

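The log2 fold changes of the 6 genes between populations were positive under every setting run, at 1.61 to 2.15 for Derl3, 3.73 to 6.45 for Lad1, 2.35 to 2.59 for Maged2, 3.56 to 4.16 for Nsg2, 3.19 to 3.93 for Plagl1 and 1.82 to 3.21 for Treml2. Their median was 2.98, and it was 3.47 with a pseudocount of 0.1, 3.57 with 0.01 and 2.82 to 3.16 with 1 library left out. The counts of all genes were less stable. Against 413 higher and 359 lower, they were 398 and 460 with median-ratio rescaling, which left more genes lower than higher, 213 and 207 with no filter, 238 and 203 with no table term, 676 and 671 in replicates 3 and 4 alone, and 1112 and 858 without both libraries numbered 1. In replicates 1 and 2 alone limma called 0 and 0 genes (707 had an unadjusted p under 0.05) and 0 and 0 of the related genes (9 at that p). Related genes, 8 higher and 4 lower, were 1 lower with no filter, 5 and 2 with no table term, 14 and 10 in replicates 3 and 4 alone and 21 and 13 without both libraries numbered 1. The replicate block gave 1655 and 1097 of all genes and 21 and 16 of the related genes. With 1 library left out they were 181 to 376 higher and 160 to 395 lower over all genes, and 5 to 13 and 1 to 4 of the related genes. The contrast of the tables called 1032 genes, with 240 with no filter, 26 with the replicate block as a random effect and 51 (without Blimp1-Treg 3) to 3862 (without Ebi3-Treg 1) with 1 library left out. The sign between tables turned for Lad1 (0.26 at a pseudocount of 0.1, 0.45 at 0.01, 0.0654 without Ebi3-Treg 1 and -0.27 to 0.28 over all libraries left out in turn), Plagl1 (-0.0327 with rescaling, -0.20 without Blimp1-Treg 4 and -0.26 to 0.32 over all libraries left out) and Treml2 (0.10 without Blimp1-Treg 1, the highest of -0.39 to 0.10), none of which passed the test. The cause of these shifts was not tested. Depth limits Lad1 in Blimp1-Treg most, at 3 to 10 reads per library.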
